A study of Mus musculus with 2 samples.

Results

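The array probe sets of 4 mouse genes, Foxj3 and the MEF2 family members Mef2a, Mef2c and Mef2d, were compared between 1 culture of wild-type (WT) skeletal myoblasts and 1 culture of Foxj3 knockout (KO) skeletal myoblasts. All probe sets that the platform annotation assigns to these symbols were taken, which gave 17 probe sets (3 for Foxj3, 6 for Mef2a, 5 for Mef2c and 3 for Mef2d) out of 34945 with a single gene symbol, and 4 genes out of 18193. Skeletal myoblasts are the dividing precursors of muscle fibres. Both cultures were at passage 3 in serum-rich growth medium and were harvested before they were confluent, and each gave RNA for 1 Affymetrix array. The labels do not give the knockout allele, the part of Foxj3 that it removes, the mouse strain or age, or whether a culture came from 1 animal, several animals or a clone. With 1 array per group there is no spread between cultures to set a difference against, so no test was made and every value describes these arrays.

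Foxj3 encodes a forkhead transcription factor, a protein that binds DNA through a winged helix domain, and it has been described as an activator of Mef2c in muscle. The MEF2 proteins are transcription factors with a MADS box. They bind A- and T-rich sites in the control regions of muscle genes, often together with MyoD family proteins that bind E-boxes, and their activity is held down by class IIa histone deacetylases and released by calcium-dependent kinases. Mef2c rises as myoblasts differentiate, while Mef2a and Mef2d are more widely expressed.

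The RefSeq promoter windows of the MEF2 genes are shown because Mef2c and Mef2d read lower on the KO array and Foxj3 encodes a DNA-binding factor. All 4 genes were matched in the promoter table (build GRCm38.p6), Mef2c with 3 start sites and the others with 1 each. The 250 bases before each start site are printed in the direction of the gene, with matches in capitals (E-boxes in the Mef2c windows). Mef2c and Mef2d lie on the plus strand, at chr13:83503784-83504033, chr13:83523406-83523655 and chr13:83573357-83573606 for Mef2c and chr3:88142122-88142371 for Mef2d.
Mef2c window 1: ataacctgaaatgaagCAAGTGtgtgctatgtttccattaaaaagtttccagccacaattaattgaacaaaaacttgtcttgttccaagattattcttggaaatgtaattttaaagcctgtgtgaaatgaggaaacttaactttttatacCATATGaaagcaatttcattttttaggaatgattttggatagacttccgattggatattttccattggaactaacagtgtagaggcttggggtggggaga
Mef2c window 2: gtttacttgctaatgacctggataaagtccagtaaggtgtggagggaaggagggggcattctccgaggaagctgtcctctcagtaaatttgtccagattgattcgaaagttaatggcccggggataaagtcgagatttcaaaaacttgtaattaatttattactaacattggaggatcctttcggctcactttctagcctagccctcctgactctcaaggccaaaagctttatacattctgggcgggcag
Mef2c window 3: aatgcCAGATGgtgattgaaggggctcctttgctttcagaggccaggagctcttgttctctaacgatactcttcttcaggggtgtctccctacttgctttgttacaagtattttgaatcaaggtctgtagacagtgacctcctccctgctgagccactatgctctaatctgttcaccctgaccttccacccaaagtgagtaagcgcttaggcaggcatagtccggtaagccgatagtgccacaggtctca
Mef2d: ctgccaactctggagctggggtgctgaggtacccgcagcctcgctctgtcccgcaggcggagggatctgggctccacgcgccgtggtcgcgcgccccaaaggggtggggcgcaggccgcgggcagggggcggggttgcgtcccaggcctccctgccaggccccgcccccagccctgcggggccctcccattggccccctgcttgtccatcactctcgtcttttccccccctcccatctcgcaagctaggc

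The forkhead, E-box and MEF2 motifs were searched on both strands over the whole window, from 250 bases before to 50 bases after the start site. The forkhead motif GTAAACA was found in 3.65% of all 32851 promoter windows and in none of the 6 windows of these 4 genes. Window 2 of Mef2c opens with gtttac, which is 6 of the 7 letters of this motif read on the other strand, and the base before it lies outside the window. E-boxes (CANNTG), present in 72.3% of all windows, were found in window 1 (2 matches) and window 3 (1 match) of Mef2c and in no window of Foxj3, Mef2a or Mef2d. The MEF2 motif (CTA, any 4 bases, TAG) was present in 3.69% of all windows and in 1 of these 6, that of Mef2a. It lies across the start site of Mef2a, with its first base 2 bases before it, and is shown in capitals in the 30 bases at chr7:67372841-67372870 on the minus strand.
Mef2a start site: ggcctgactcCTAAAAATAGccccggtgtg

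The Mef2c windows were the poorest in G and C of the 6, at 33.6%, 44.8% and 49.6%, against 61.6% for Mef2a, 73.2% for Mef2d and 74.4% for Foxj3. The median over all windows was 52.4%. A match of letters does not show that a factor binds there, and a window without a match says nothing about sites elsewhere.

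The deposited values are linear signal intensities, 1 per probe set and array, and the array medians were 62.03 (WT) and 63.94 (KO). Values under a detection floor of 47.04, the 40th percentile of both arrays pooled, were set to the floor before a log2 ratio was taken. Pairs of signals are given throughout with WT first and KO second, and all ratios are KO over WT. A ratio with 1 side under the floor is a bound, written as "at least", and none is given where both sides are under it. Of the 17 probe sets, 14 exceeded the floor on at least 1 array: 9 on both arrays, 4 on the WT array alone and 1 on the KO array alone. For 4752 genes, both arrays gave a signal over the floor at several probe sets. The log2 ratios within such a gene scattered around each other with an SD of 0.63 (per probe set). This SD describes differences between probe sets of a gene and does not measure variation between arrays or cultures. Precision is limited by the number of arrays.

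**Figure D1:**
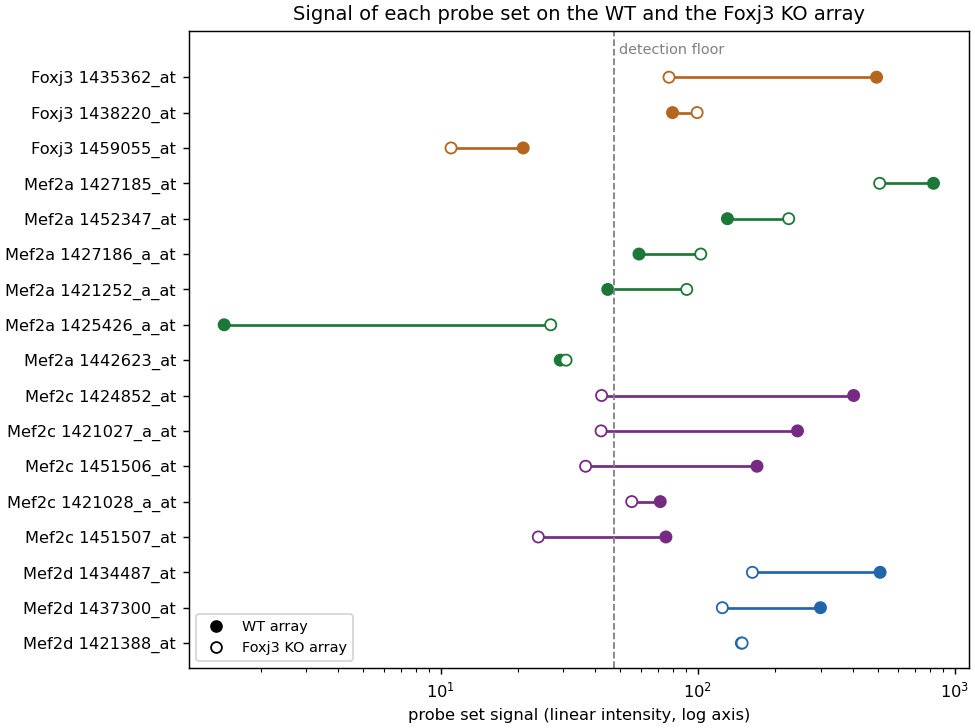
Signal of each of the 17 probe sets (rows) on the WT array (filled circles) and the Foxj3 KO array (open circles), as linear intensity on a log axis; the dashed line is the detection floor of 47.04. All 5 Mef2c probe sets lie further left on the KO array, while Mef2a, Mef2d and Foxj3 each hold probe sets that go different ways.

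Foxj3, the gene targeted in the KO culture, was read by 3 probe sets that did not go the same way. The signals of 1435362_at were 495.51 and 77.28, which is 6.41-fold lower in the knockout (log2 ratio -2.68). Ranked among all values of its own array, it stood at percentile 93.3 (WT) and at percentile 56.3 (KO). Of the 30506 probe sets over the floor, 39 had a ratio this low or lower. Probe set 1438220_at read 79.74 and 99.40 (log2 ratio 0.32), a difference smaller than the SD of 0.63 between probe sets of a gene. Probe set 1459055_at read 20.95 and 10.98, under the floor on both arrays. The bright probe set thus gave a dim reading on the KO array, and the dimmer one read much alike on both. Which of these probe sets lie in the removed part of the gene is not given, so they do not check the labels. The distance between the measured Foxj3 ratios, 3.00 on the log2 scale, was reached by 14 of the 3672 genes with 2 measured probe sets, Foxj3 included.

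Mef2c, which encodes the MEF2 factor most closely tied to muscle differentiation, read lower on the KO array at all 5 of its probe sets. Probe set 1424852_at read 403.70 and 42.26, at least 8.58-fold lower. Probe set 1421027_a_at read 244.16 and 42.07, at least 5.19-fold lower. Probe set 1451506_at read 169.90 and 36.63, at least 3.61-fold lower. All 3 crossed the floor, with WT above it and KO below it. Probe set 1451507_at read 75.17 and 23.98, at least 1.60-fold lower, and 1421028_a_at read 71.45 and 55.35, 1.29-fold lower and over the floor on both arrays. Each bound is the floor over the WT signal, so the order of the bounds follows from brightness on the WT array. For 1451507_at the floor limits the ratio, since its signals without the floor give a log2 ratio of -1.65. For 1421028_a_at the log2 ratio is -0.37 with or without the floor.

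Ranks within each array, which no scaling of a whole array can move, went the same way for Mef2c. Its probe sets stood between percentiles 54.3 and 91.1 on the WT array, all above the median of that array, and between percentiles 17.9 and 45.0 on the KO array, all below it. The suffix _a_at marks probe sets that read several transcripts of a gene, and Mef2c had a lower KO signal at those as well as at the others. Of the 5 probe sets 3, namely 1424852_at, 1451506_at and 1451507_at, were designed on the same sequence record, so they are not independent readings. In RNA of a whole culture, fewer cells with Mef2c transcript and less transcript per cell cannot be told apart.

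Agreement of this kind among probe sets was uncommon on these arrays. Among 401 genes with at least 5 measured probe sets, 16 (3.99%) had all of them below 0, and 4 (0.998%) also had at least 3 of them 2-fold lower. The 4 genes were Mef2c, the titin gene Ttn, the triadin gene Trdn, which encodes a protein of the muscle calcium store, and Mcl1, which encodes an antiapoptotic protein. This criterion was set on the pattern of Mef2c after its values were seen and describes the arrays only.

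Mef2d, a broadly expressed MEF2 gene with a muscle-specific splice form, read lower on the KO array at 2 of its 3 probe sets. Probe set 1434487_at read 511.54 and 163.03, 3.14-fold lower (log2 ratio -1.65). Probe set 1437300_at read 299.89 and 124.54, 2.41-fold lower (log2 ratio -1.27). Probe set 1421388_at read 147.71 and 148.69, with a log2 ratio of 0.01. All 3 were over the floor on both arrays, so these are ratios and not bounds. On the KO array they still stood at percentiles 77.5, 70.6 and 75.3, above the array median, whereas Mef2c did not. Of 1573 genes with 3 measured probe sets, 45 (2.86%) had at least 2 of them 2-fold lower.

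Mef2a, the third widely studied member of the family, had no measured probe set past the 2-fold threshold, although 1 of its 4 measured ratios is a bound just short of it. Probe set 1427185_at read 824.91 and 509.39, 1.62-fold lower (log2 ratio -0.70). The other measured probe sets read higher on the KO array. Probe set 1452347_at read 130.36 and 225.67 (log2 ratio 0.79), 1427186_a_at read 59.07 and 102.69 (0.80), and 1421252_a_at read 44.66, under the floor, and 90.57, at least 1.93-fold higher. Probe set 1425426_a_at read 1.44 and 26.80 and 1442623_at read 29.19 and 30.74, both under the floor on both arrays. The direction of Mef2a therefore depends on the probe set, since its brightest one gives a log2 ratio of -0.70 and the mean over all 6 gives 0.31.

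The opposite Mef2a readings came from probe sets of the same sequence record: 1427185_at, 1452347_at and 1427186_a_at were all designed on it. Probe sets of both signs were common on these arrays, in 81.7% of the 605 genes with 4 measured probe sets, and 27.9% of those genes spanned a range at least as wide as the 1.64 of Mef2a. Designs on a shared record did not agree more closely in general. Within a gene, the log2 ratios of a pair of probe sets differed with an SD of 0.88 in 1881 genes with a pair on the same record and of 0.88 in 3129 genes with a pair on different records.

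Counted together, 6 of the 14 measured probe sets were lower in the knockout by 2-fold or more and 0 were at least 2-fold higher. Of all 30506 measured probe sets, 6.29% were at least 2-fold lower and 5.44% at least 2-fold higher. The 6 were 3 of Mef2c, 2 of Mef2d and 1 of Foxj3, and probe sets of the same gene read the same RNA. With each gene represented by its brightest probe set, 3 of 4 genes (Foxj3, Mef2c and Mef2d) were at least 2-fold lower and 0 higher, against 6.72% and 3.73% of the 14597 measured genes. With the mean over all probe sets of a gene, those under the floor on both arrays taken as 0, Mef2c alone stayed past 2-fold (log2 ratio -1.67), with Foxj3 at -0.79 and Mef2d at -0.97. The median log2 ratio over the 14 probe sets was -0.69, and over all measured probe sets it was -0.01. These genes were chosen with earlier results of these arrays known, so the counts are a description.

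**Figure D2:**
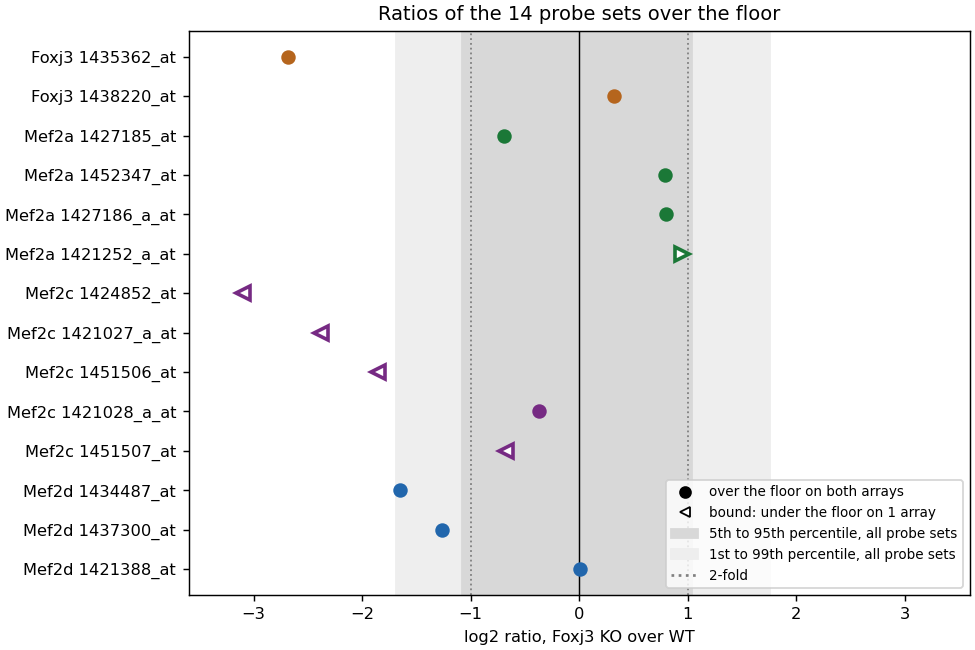
Log2 ratio, KO over WT, of the 14 probe sets over the floor (circles, neither array under the floor; open triangles, bounds that point away from 0). Grey bands mark the 5th to 95th percentile (-1.08 to 1.04) and the 1st to 99th percentile (-1.69 to 1.76) of all 30506 measured probe sets; 3 Mef2c probe sets and 1 of Foxj3 lie outside both bands.

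Brightness limits how far a ratio can go, because a dim probe set soon reaches the floor. Members over the floor on both arrays were therefore also set among probe sets whose mean log2 signal lay within 0.25 of their own, each counted with itself. For Foxj3 1435362_at, 6 of 3069 had a ratio as low. For Mef2d the counts were 38 of 2300 (1434487_at) and 151 of 3087 (1437300_at). For Mef2a 1427185_at the count was 68 of 970, or 7.01%, and for Mef2a 1452347_at 296 of 3409 lay as high, or 8.68%. For Foxj3 1438220_at 1592 of 4879 lay as high (32.6%), for Mef2a 1427186_a_at 915 of 5347 (17.1%) and for Mef2d 1421388_at 1686 of 3789 (44.5%). For Mef2c 1421028_a_at, 2043 of 6843 lay as low (29.9%). The other 4 Mef2c ratios are bounds set by the floor, so their counts are not given.

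**Figure D3:**
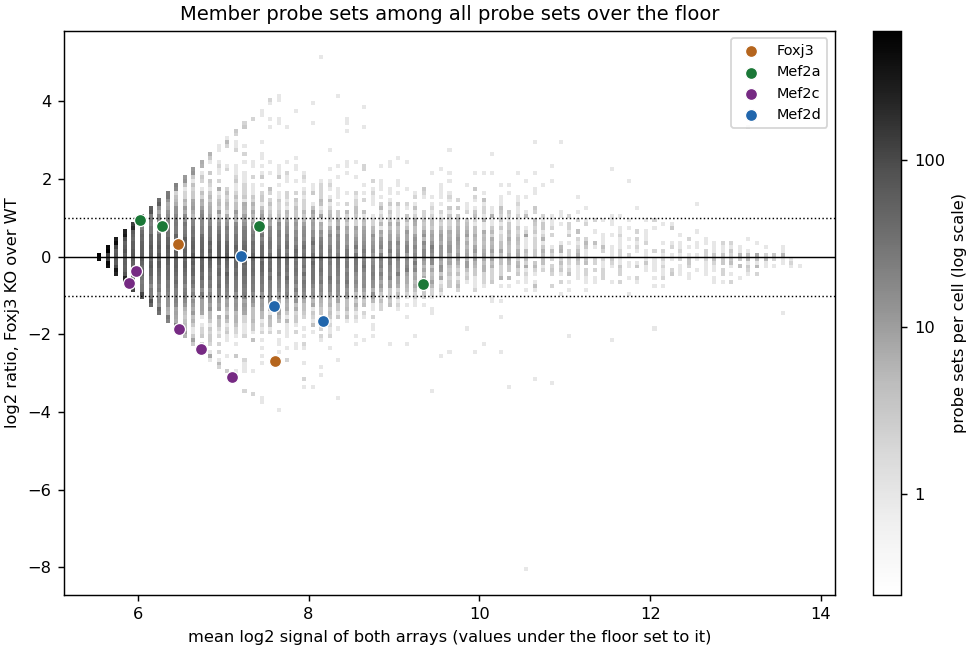
Log2 ratio (KO over WT) against mean log2 signal for the 30506 probe sets over the floor on at least 1 array, as the number of probe sets per cell in grey, with the 14 measured probe sets of Foxj3, Mef2a, Mef2c and Mef2d in colour; dotted lines mark 2-fold. The Mef2c points with the largest ratios lie on the lower edge, which is formed by probe sets under the floor on the KO array.

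The genes most like each of the 4 were taken as those at the smallest distance in log2 signal on both arrays, over 2 arrays and by the brightest probe set. Nearest to Foxj3 were Jsrp1, which encodes a protein of the junctional sarcoplasmic reticulum (482.58 and 86.29), Casq2, a calsequestrin gene (533.67 and 85.32), and Klhl41, a kelch gene of muscle (533.69 and 86.49). Nearest to Mef2c were Lmod3, which encodes a leiomodin of actin filaments (425.70 and 36.61), Hjv, which encodes hemojuvelin (364.61 and 16.67), and Cox8b, a cytochrome c oxidase subunit gene (361.76 and 38.19). The second Hjv probe set read 145.34 and 23.49, also lower on the KO array. The other genes in these triplets had no other measured probe set.

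For Mef2d the nearest genes were Atp6v0b, Ttll1 and Rps6, and for Mef2a they were Tmem230, Zfp106 and Eif3m. Atp6v0b, a subunit gene of the vacuolar proton pump, read 514.10 and 163.49 and had a mean log2 ratio of -0.67 over its 3 probe sets. Its other probe sets had log2 ratios of -0.25 and -0.11. Ttll1, a tubulin-modifying enzyme gene, read 512.90 and 159.08, with a mean of -0.27 over 3. Eif3m, a translation initiation factor gene, read 851.21 and 491.36 by 1 probe set and 372.29 and 602.04 by the other. Like Mef2a itself, Eif3m had probe sets of both signs. The same held for Ttll1 (other log2 ratios -0.10 and 0.98) and for Zfp106 (-0.08 and at least 0.58).

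No ratio or bound of the relatives of the 4 genes reached 2-fold. Mef2b, the fourth mammalian MEF2 gene, read 38.02, under the floor, and 52.29 by its single unshared probe set. A probe set shared with the neighbouring gene Borcs8 read 136.92 and 181.72. Srf, which encodes the other well known MADS box factor of muscle, read 455.72 and 278.30 (log2 ratio -0.71) and, by its second probe set, 101.44 and 107.54 (0.08). Foxj2, the closest relative of Foxj3, read 322.94 and 182.47 (log2 ratio -0.82) and, by its second probe set, 57.84 and 46.25, the latter under the floor.

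Genes around MEF2 were described as 3 lists, each gene by its brightest probe set. Of 45 measured cofactors and upstream regulators (of 46 listed), 2 (4.44%) were at least 2-fold lower and 3 (6.67%) at least 2-fold higher, against 6.72% and 3.73% of all genes. Their median log2 ratio was -0.19, and that of all measured genes -0.06. The lower ones were Hdac4 (169.08 and 76.93, 2.20-fold) and Hdac5 (298.33 and 145.55, 2.05-fold), class IIa histone deacetylases that repress MEF2 proteins. The other class IIa genes read 189.43 and 327.61 (Hdac7) and 70.02 and 49.90 (Hdac9). The higher ones were the p38 kinase gene Mapk11 (255.49 and 545.85, 2.14-fold), the calcium-dependent kinase gene Camk4 (8.18 and 128.94, at least 2.74-fold) and Camk2b (0.92 and 769.98, at least 16.4-fold, with a single probe set that read almost nothing on the WT array). The second Hdac4 probe set read 111.58 and 88.42, and the second Mapk11 probe set 49.42 and 71.84, both of the same sign as the first and under 2-fold. The second Camk4 probe set read 11.42, under the floor, and 52.43, so its ratio is also a bound above 0.

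Genes listed as MEF2 targets, most of them muscle genes, were lower on the KO array in larger number. Of 27 measured (of 29 listed), 14 (51.9%) were at least 2-fold lower and 2 (7.41%) at least 2-fold higher, against 6.72% and 3.73% of all genes. Their median log2 ratio was -1.08, beside -0.06 for all genes. The list also held Nr4a1, Jun, Klf2, Klf4 and Egr1, which are not particular to muscle, and Egr1 (641.88 and 303.22) was among the 14. The lowest ratios were those of Myh7, the slow myosin heavy chain gene (1156.19 and 89.29, 12.9-fold), Tnnc1, the slow troponin C gene (5616.64 and 597.93, 9.39-fold), and Lmod3 (at least 9.05-fold). The higher ones were the myoglobin gene Mb (668.04 and 1619.51) and the muscle kinase gene Srpk3 (217.71 and 668.13), and each had another probe set that read lower: 411.32 and 60.11 for Mb, and 189.50 and 36.96 for Srpk3. Of the lower genes 11 had a single measured probe set. In the other 3, which were Ppargc1a, Smyd1 and Speg, at least 1 further probe set had the opposite sign. For Smyd1, which encodes a muscle methyltransferase, all 3 others did. Many genes on this list belong to the contractile apparatus, and several of these were already known to read lower on this KO array when the list was made.

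**Figure D4:**
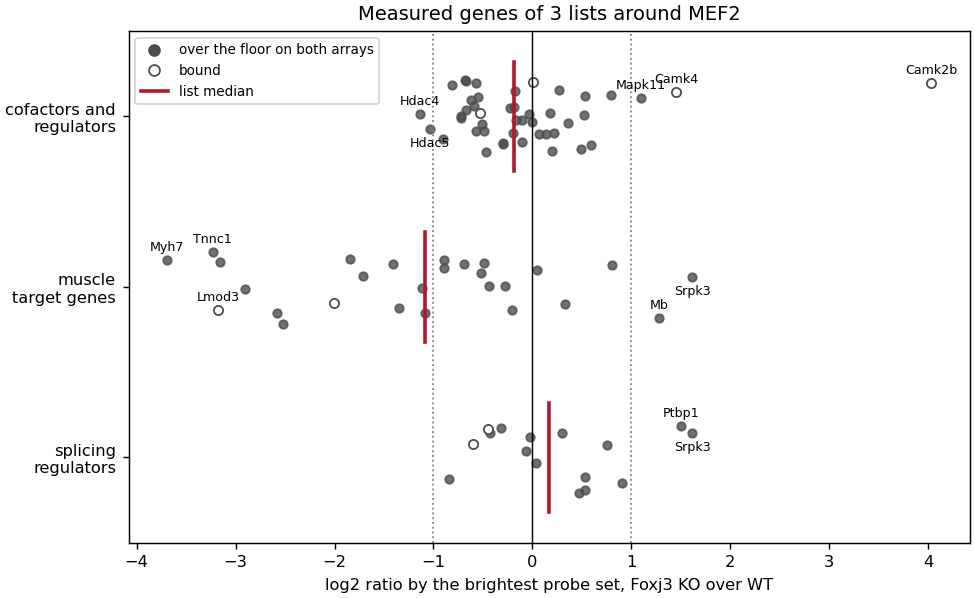
Log2 ratio (KO over WT) of the measured genes of 3 lists, each gene by its brightest probe set, with list medians in red at -0.19 (cofactors and regulators, 45 genes), -1.08 (muscle target genes, 27 genes) and 0.16 (splicing regulators, 16 genes). Open circles are bounds, dotted lines mark 2-fold, vertical scatter has no meaning, and the genes at the ends of each list are named.

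MEF2 transcripts undergo alternative splicing, and the last list held splicing regulators. Whether each of them acts on MEF2 transcripts was not tested. By the brightest probe set, the list had no member at least 2-fold lower, against 6.72% of all genes. Of 16 measured genes 2 (12.5%) were at least 2-fold higher, Srpk3 and the polypyrimidine tract binding gene Ptbp1 (353.44 and 1001.29, 2.83-fold), against 3.73% of all genes, and the list median was 0.16. Both further Ptbp1 probe sets pointed the opposite way, one at 234.66 and 181.31, the other at 530.89 and 457.54. Other probe sets were up to 3.96-fold lower for Rbm24, 2.13-fold for Srpk2 and 4.03-fold for Srpk3. Each of these genes also had a probe set above 0. Others were higher, with log2 ratios up to 3.38 for Mbnl2 and 1.98 for Srsf2.

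Markers of the labelled cell type were present on both arrays. All 10 myoblast markers were measured, with signals that summed to 9552 (WT) and 11240 (KO) and a median log2 ratio of 0.01. They included Myf5 (731.38 and 723.84), Pax7 (512.87 and 626.84) and Myod1 (631.27 and 1750.95), which encode factors of the myogenic lineage. By the brightest probe set, 5 of the 10 were above 0 and 5 below. At least 2-fold higher were 2 (Myod1 and the syndecan gene Sdc4, at 468.01 and 2148.91), and 0 were at least 2-fold lower. The lowest ratio was that of the desmin gene Des (2024.29 and 1090.79, log2 ratio -0.89, with another probe set at 0.82). Next were Itga7 (-0.62), Cdh15 (-0.55) and Ncam1 (-0.19). Of the 6 other measured Ncam1 probe sets 5 were also below 0, the lowest 2.56-fold lower, and the highest had a log2 ratio of 1.02. At least 3 Ncam1 probe sets were 2-fold lower. Other probe sets of Vcam1 (log2 ratios 2.59 and 2.97) and Pax7 (1.27) were higher. Mef2c is also expressed in leukocytes, endothelium and neurons, so markers of these were read beside it. Of 8 leukocyte markers on the array 5 were measured, summing to 740 (WT) and 711 (KO). The measured ones were Adgre1 (312.77 and 210.32), Csf1r (171.16 and 276.49), Spi1 (123.04 and 62.02), Lyz2 (72.20 and 71.96) and Cd79a (60.95 and 90.06). Other Csf1r probe sets had log2 ratios of -0.35 and 1.11. The pan-leukocyte gene Ptprc, Cd68 and Itgam were under the floor on both arrays. Of 7 endothelial markers 2 were measured, summing to 138.50 and 164.39. These were Kdr (110.20 and 101.27) and Cdh5 (28.30, under the floor, and 63.12). Pecam1, Tek, Tie1, Emcn and Vwf were under the floor on both arrays. Of 6 neural and Schwann markers 5 were measured, summing to 561 and 549. Fibroblast markers (6 of 9 measured) summed to 1368 and 1778, and smooth muscle and pericyte markers (4 of 6 measured) to 7099 and 7005. Most of the latter sum was Acta2 (6049.03 and 5080.98), while Myh11, the smooth muscle myosin gene, read 337.84 and 84.77 and Tagln read 625.85 and 1748.80, 1 gene past 2-fold in each direction. The part of other cell types in the Mef2c readings was not tested.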

How the data were processed

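Total RNA of 1 WT and 1 Foxj3 KO myoblast culture was labelled with biotin as cRNA and hybridised to 1 Affymetrix array per sample, per the labels' protocols. The values deposited by the authors are linear signal intensities, 1 per probe set and array. The summarisation of probes and any scaling are not stated in the labels or files used here. Values were used as deposited. The number of value columns left without a sample was 0.

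Of 45037 probe sets, 34945 had 1 symbol in the platform annotation, 932 had several and 9160 were not listed. Older symbols were replaced by those that RefSeq (GRCm38.p6) gives for the Entrez number. The floor (40th percentile), the log2 ratio and the brightest probe set per gene (highest mean log2 value) were computed in Python 3.11.15 with pandas 2.3.3 and statsmodels 0.14.6. A threshold of 2-fold replaced a test, since there was 1 array per group, and the calculation was checked on simulated data. Known ratios were put only into probe sets bright on the WT array, with noise smaller than the SD of 0.63. The check thus covers the arithmetic and not dim probe sets. An alternative was said to move a ratio if it shifted it by more than the SD of 0.63 between probe sets of a gene.

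The genes described, the lists and the rules were chosen with earlier results of these data known. Every probe set of the 4 genes is named. Mef2b, Srf and Foxj2 were named whatever their value, with up to 3 genes at each end of each list (those at least 2-fold different) and the 3 nearest genes of each of the 4. Hdac7, Hdac9, Ppargc1a, Smyd1, Speg, Nr4a1, Jun, Klf2, Klf4, Egr1, Rbm24, Srpk2, Mbnl2, Srsf2 and the marker genes were named after their values were seen. The alternatives were quantile, median and loess scaling (span 0.3), other floors, a pseudocount, the mean over probe sets, leaving out _s_at and _x_at probe sets, and thresholds of 1.5-fold and 3-fold.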

Additional observations from a re-analysis of the deposited data

How the results depend on the processing

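No paired analysis was possible because each group has 1 sample. The log2 ratios of Foxj3, Mef2a, Mef2c and Mef2d by their brightest probe sets kept their direction under quantile, median and loess scaling, other floors, the pseudocount and without _s_at and _x_at probe sets. Mef2c moved to -2.22 at the higher floor (60th percentile) and to -2.34 with the pseudocount. The mean over probe sets gave -0.79 for Foxj3, 0.31 for Mef2a, -1.67 for Mef2c and -0.97 for Mef2d, so Foxj3 and Mef2d came under 2-fold and Mef2a changed sign. Of the 17 member probe sets, Mef2c 1451507_at moved most, to -1.58 at the lower floor (20th percentile) and to 0 at the 60th, where Mef2c 1451506_at also came under 2-fold (-0.98). The count of member probe sets past the threshold and higher became 1 at the lower floor (20th percentile), and 3 at a 1.5-fold threshold. The lower count was 7 and 8 there.

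Among cofactors and regulators, the lower genes numbered 1 with quantile or loess scaling, at the higher floor (60th percentile) or with the mean over probe sets, 0 with the pseudocount or at 3-fold, and 11 at 1.5-fold, and the higher genes 5 at 1.5-fold and 1 at 3-fold. The lower MEF2 target genes, 14 in the main setting, numbered 11 with the mean over probe sets, where the list median was -0.75. They numbered 12 at the higher floor (60th percentile) or with the pseudocount, 10 at 3-fold and 17 at 1.5-fold. With quantile or loess scaling they numbered 15. The higher MEF2 target genes numbered 0 with the mean over probe sets and 1 at 3-fold. Splicing regulators had 1 lower gene at the lower floor (20th percentile) and 2 at 1.5-fold, and 0 higher with the mean over probe sets, 4 at 1.5-fold and 1 at 3-fold.

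Over all probe sets, lower and higher counts were 1920 and 1660. They became 1146 and 898 at the higher floor (60th percentile), 2862 and 2910 at the lower floor (20th percentile) and 954 and 1067 with the pseudocount. At 1.5-fold they were 5289 and 4652, and at 3-fold 413 and 436. Over all genes (981 and 544) they were 485 and 313 with the pseudocount, 2811 and 1866 at 1.5-fold and 221 and 109 at 3-fold. At the 20th percentile floor they were 1241 and 873, and at the 60th 680 and 353. Changes with a floor or threshold follow from its construction, and the cause of the others was not tested. Signal over background limits the dim probe sets: 4 of the 5 Mef2c ratios are bounds.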
